A study of Arabidopsis thaliana with 8 samples.

Results

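Binding of GBF2 was described at 9 genes for NAC transcription factors of Arabidopsis thaliana, of 27444 protein-coding nuclear genes in the RefSeq table. The genes were picked by gene ID, with earlier results on these peaks known, and are ATAF1 (AT1G01720), ATAF2 (AT5G08790), NAC019 (AT1G52890), NAC055 (AT3G15500), NAC072 (AT4G27410, also called RD26), NAC056 (AT3G15510), NAC047 (AT3G04070), NAC053 (AT3G10500) and NAC076 (AT4G36160). Their peaks are therefore given as a description, without tests. Of the 9 genes, 7 had a peak in at least 1 list and 2 had none. Most have roles in stress or senescence, but NAC076 is known as VASCULAR-RELATED NAC-DOMAIN 2, a regulator of vessel formation, and NAC056 for its part in seed development, so the name "stress NAC genes" is a loose one.

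The peaks come from chromatin immunoprecipitation and sequencing with an antibody against GFP. Whole seedlings of genotype pGBF2:GBF2-Ypet (Col-0) were used in every group, so all carried a transgene in which the promoter of GBF2 drives GBF2 fused to Ypet, a fluorescent protein. At 5 days of age they spent 6 h in liquid medium with tunicamycin at 0.5 µg/mL, which blocks N-glycosylation and stresses the endoplasmic reticulum (ER), or with DMSO, its solvent. Each treatment had 2 immunoprecipitated and 2 input libraries, 8 in all, and the labels call them biological replicates. No group without the transgene was analysed here. The deposited values are 1 peak list per treatment (320 peaks for DMSO, 767 for tunicamycin) and the authors' own selection of 502 tunicamycin-specific peaks. None of them holds values per library. Depth and replicate spread are thus unknown, and a site missing from the shorter DMSO list may have fallen under the threshold for calling peaks.

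NAC proteins share an N-terminal DNA-binding domain and carry variable C-terminal regions that activate or repress transcription. Many are made in response to abscisic acid, jasmonic acid, drought, wounding or leaf ageing, and a subgroup is held at membranes and released by cleavage. GBF2 is a bZIP factor that binds the G-box, a DNA element also bound by factors that act in abscisic acid and jasmonic acid signalling.

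GBF2 peaks at these genes stood mostly in the tunicamycin list. It held a peak at 7 of the 9 genes, the specific list at 6 and the DMSO list at 1, NAC056, which was thus the 1 gene found in both treatments' lists. Among all protein-coding genes the shares were 2.27% for the tunicamycin list, 1.52% for the specific list, 0.849% for the DMSO list and 0.762% for both treatments' lists. Since the genes were picked with their peaks known, nothing can be read from the distance between these shares. No gene had more than 1 peak in a list.

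The authors placed all 7 tunicamycin peaks in their class of promoters within 1 kb, which held 76% of that list. On chromosome 3 lay 4 of the 7, among them the neighbours NAC055 and NAC056, and 21.6% of all tunicamycin peaks. They were of similar length, from 802 to 1028 bp, around the list's median of 878 bp. Their scores were modest. This score was deposited with each peak, and it can order the peaks of 1 list but not compare lists. It ran from 2.07 to 2.69 at the 7 genes, while the whole list ran from 1.89 to 7.49 with a median of 2.47. Above that median lay 2 of the 7 peaks and below it 5, of which 4 lay under the list's lower quartile of 2.26. None of the 7 reached the upper quartile of 2.75.

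**Figure D1:**
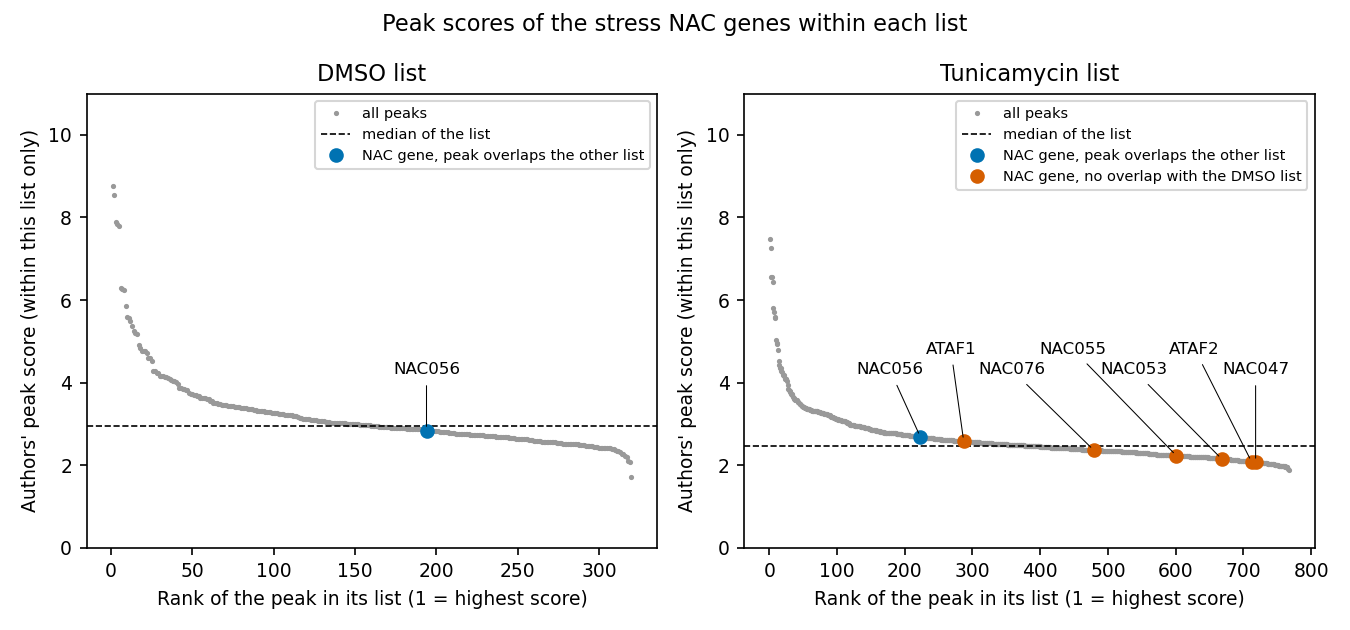
Authors' peak score (y axis, no unit, comparable within a list only) against the rank of the peak (x axis, 1 is the highest score) for the DMSO list (left, 320 peaks) and the tunicamycin list (right, 767 peaks). Each grey point is a peak, the dashed line is the list's median, and coloured points are the NAC genes. NAC056 and ATAF1 lie above the tunicamycin median of 2.47 and the other 5 below it, and in the DMSO list NAC056 lies below the median of 2.96.

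NAC056, which acts with its relative NAM in seed coat and embryo development, was the gene with a peak in both lists. Its tunicamycin peak covered 954 bp at chr3:5241872-5242825 (TAIR10 coordinates throughout) and had the highest score of the 7, 2.69, at rank 223 of 767. Its DMSO peak covered 866 bp at chr3:5241965-5242830 and had a score of 2.84, at rank 194 of 320. The 2 peaks shared 861 bp, which is 99.4% of the DMSO peak and 90.3% of the tunicamycin peak, and their midpoints were 49 bp apart. The DMSO peak was in the promoter class too, as were 69.1% of DMSO peaks, and the tunicamycin peak was left out of the tunicamycin-specific list. The site thus lay above the median score of the tunicamycin list and below that of the DMSO list. The 2 scores cannot be set against each other.

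The other 6 peaks overlapped no DMSO peak, and all 6 were in the tunicamycin-specific list. Of all tunicamycin peaks 36.1% overlapped a DMSO peak and 65.4% were in the specific list. The specific list was drawn from the same 767 peaks, 490 of which had no DMSO overlap, so these counts are not separate results. The 6 scores had a median of 2.19, and the 490 tunicamycin peaks without a DMSO overlap had a median of 2.35.

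The ATAF genes, which answer to drought and wounding, lay far apart among the 6 by score. ATAF1, a regulator of abscisic acid synthesis and leaf ageing, had the highest score without a DMSO overlap, 2.58, at rank 287 of the whole list and rank 96 of the 490. Its peak lay at chr1:267785-268615. ATAF2, a wound-induced regulator of defence genes, had the second-lowest score, 2.08, at rank 712 of 767. Its peak, at chr5:2860007-2861034, was the longest of the 7, at 1028 bp. The gene with the higher score thus had the shorter peak.

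NAC019, NAC055 and NAC072 are close relatives that bind the promoter of ERD1, a drought-induced gene, and act downstream of MYC2 in jasmonic acid signalling. Of the 3, NAC055 alone was given a peak. It lay at chr3:5233975-5234787, with a score of 2.23 at rank 601 of 767. NAC019 and NAC072 had no peak in any of the 3 lists, and neither had the genes next to them on either side. In the order of protein-coding genes, 32 genes separated NAC019 from the nearest gene with a tunicamycin peak on one side and 30 on the other. For NAC072 these numbers were 9, up to BBX28, and 61. The absence of a peak does not show that GBF2 was absent from these promoters, since neither depth nor the threshold for calling a peak is known.

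NAC047, also named SPEEDY HYPONASTIC GROWTH for its part in petiole bending under waterlogging, had the lowest score of the 7, 2.07, at rank 718. Its peak lay at chr3:1063647-1064448, and 49 peaks of the list scored lower. NAC053, a membrane-held factor that promotes reactive oxygen species under drought, had a score of 2.15 at rank 668, at chr3:3270769-3271739. NAC076, the vessel regulator, had 2.37 at rank 479, at chr4:17114706-17115524. These 3 peaks and those of ATAF2 and NAC055 were the 5 that scored below the median of the list.

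Several of these genes lie beside other NAC genes, and in 1 case both neighbours had a peak. NAC055 and NAC056 follow each other among protein-coding genes of the TAIR10.1 table, with a gene for a long non-coding RNA between them. Each had its own tunicamycin peak, with 7084 bases between the peaks. In the DMSO list NAC056 had a peak and NAC055 had none. Of the 767 tunicamycin peaks, 17.7% had another peak at this distance or nearer. Of 27439 pairs of neighbouring protein-coding genes, 24 had a tunicamycin peak at both genes. Among the 622 protein-coding genes with a tunicamycin peak, 7.72% lay in such a pair. In 9 of the 24 pairs, like this one, 1 gene had a peak shared with DMSO and the other a peak without DMSO overlap.

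**Figure D2:**
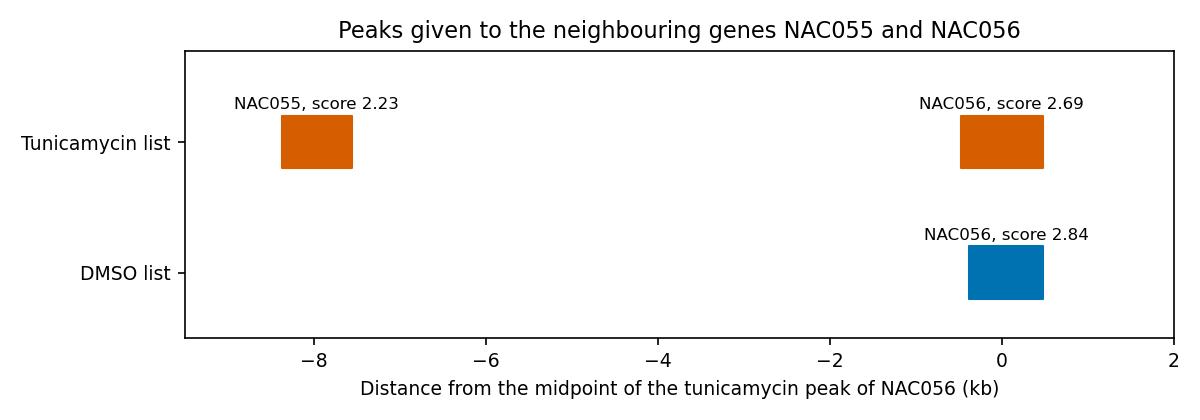
Peaks given to NAC055 and NAC056 as bars to scale, by distance in kb from the midpoint of the tunicamycin peak of NAC056 (x axis), with the tunicamycin list above and the DMSO list below. The tunicamycin list holds 2 peaks with 7084 bases between them, and the DMSO list holds the one at NAC056, which shares 861 bp with its tunicamycin counterpart.

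NAC046, a factor of leaf ageing, is the neighbour of NAC047, and NAC052 that of NAC053; neither NAC046 nor NAC052 was given a peak. NAM, named NAC018 in the family numbering, is the neighbour of NAC019, and both were without a peak. In all, 5 of the 9 genes lay next to another NAC gene. Of the 100 NAC family genes, which include these 9, 20 did. Of the 11 pairs of neighbouring NAC genes, 1 had tunicamycin peaks at both genes, 2 at 1 gene and 8 at neither. Over all protein-coding genes, 24 of 27439 neighbouring pairs had tunicamycin peaks at both genes. Every peak in the NAC pairs lay at a gene picked with earlier results known. No contrast can therefore be read from the counts of pairs or of genes beside a NAC gene. The files give 1 gene per peak and do not say how it was chosen, so a peak between neighbours may concern either.

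Outside that pair, the next peak was about as near as is typical of the list for 2 genes and farther for 3. The nearest other tunicamycin peak was 31.5 kb from that of NAC053 and 33.5 kb from that of ATAF1, close to the median of 33.5 kb over all tunicamycin peaks. It was 76.9 kb away for ATAF2, 101 kb for NAC047 and 161 kb for NAC076. Among the 6 peaks without a DMSO overlap, the nearest DMSO peak was 7.18 kb away for NAC055, 33.6 kb for ATAF1, 101 kb for NAC047, 148 kb for NAC076, 257.0 kb for ATAF2 and 412.6 kb for NAC053. Over all 490 such peaks the median of this distance was 122.3 kb and the upper quartile 261.8 kb, so NAC053 alone lay beyond that quartile. None of the 16 protein-coding neighbours other than NAC055 and NAC056 themselves had a peak in either treatment's list.

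**Figure D3:**
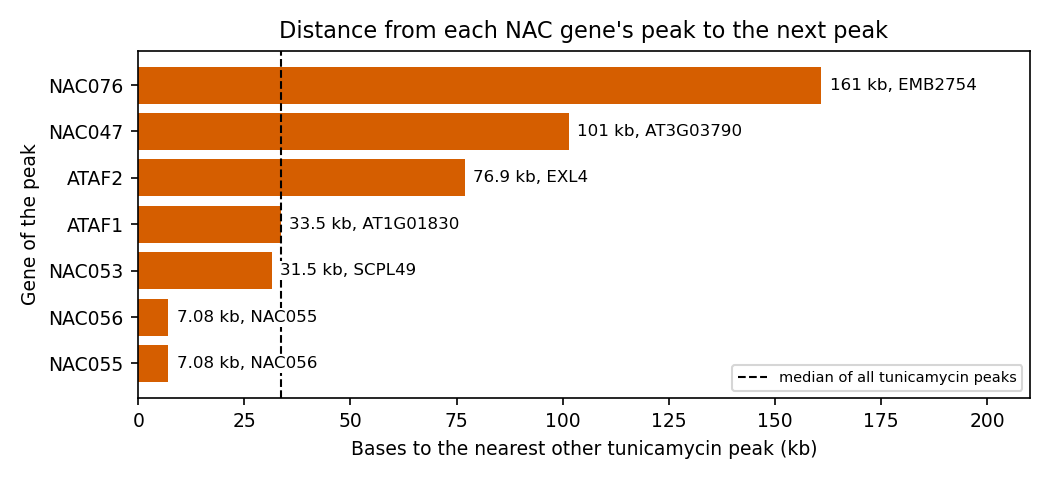
Bases in kb (x axis) between each NAC gene's tunicamycin peak and the nearest other peak of the tunicamycin list, with the gene of that peak beside the bar, and the median of all 767 peaks as a dashed line. NAC055 and NAC056 are each other's nearest, at 7.08 kb, NAC053 and ATAF1 lie near the median of 33.5 kb, and the other 3 lie beyond it.

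Across the NAC family, 8 of 100 genes had a tunicamycin peak (8%, with a 95% Wilson interval of 4.11 to 15.0%), and 1 of 100 a DMSO peak (1%, 0.177 to 5.45%). These intervals describe counting error alone. Of the 8 genes, 7 were picked with earlier results known, so no excess over the 2.27% of all protein-coding genes can be read from the intervals. The 8 were the 7 genes above and NAC089 (AT5G22290), a membrane-held factor of cell death under ER stress, with a score of 2.51 at rank 347 and no DMSO overlap. Without the 9 genes, picked with earlier results known, 1 of 91 family genes was left (1.1%, 0.194 to 5.96%). That share is low by construction and is no fair estimate for the rest of the family. For scale, 2 of 71 WRKY genes (2.82%) and 4 of 125 numbered MYB genes (3.2%) had a tunicamycin peak. The numbered MYB genes are not the whole MYB family. The difference between these gene sets was not tested.

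**Figure D4:**
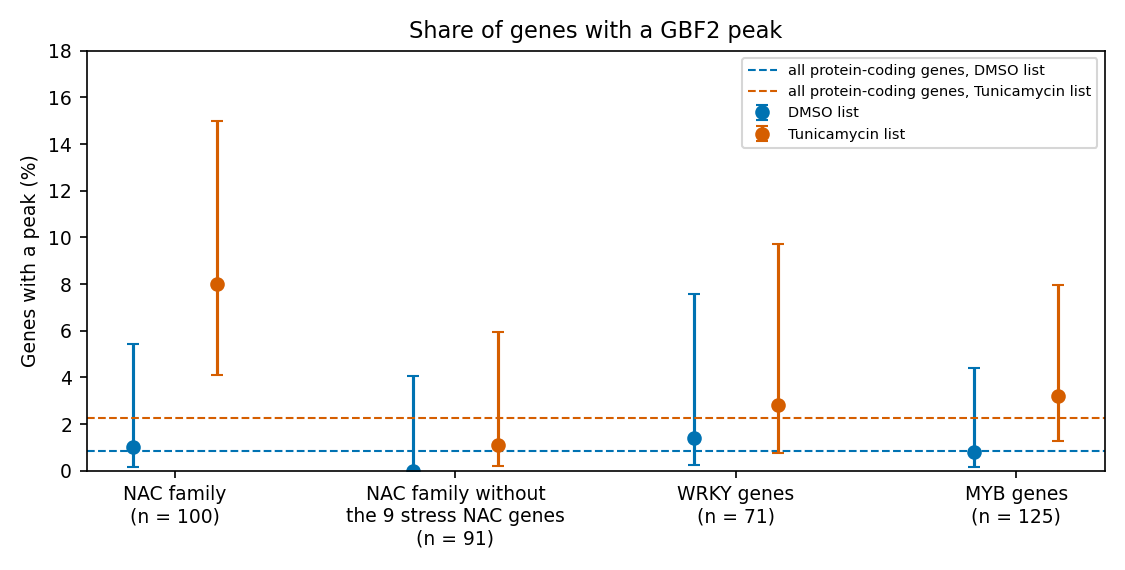
Share of genes with a peak in % (y axis) in the DMSO and tunicamycin lists. The sets are 100 NAC family genes, the 91 without the 9 stress NAC genes, 71 WRKY genes and 125 numbered MYB genes. Points are shares, bars are 95% Wilson intervals for counting error, and dashed lines are the shares of all protein-coding genes, 0.849% and 2.27%. The 9 genes were picked with earlier results known, so neither NAC share can be judged against the dashed lines.

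Relatives with like roles were counted next; at the shares of all protein-coding genes, 2.27% for the tunicamycin list and 0.849% for the DMSO list, lists this short would hold at most a few peaks. The 9 genes were picked with earlier results known and hold 7 of the 8 NAC genes with a tunicamycin peak, all but NAC089. Counts among the other NAC genes follow from that choice, and no contrast with the 9 can be read from them. Among 12 other NAC genes of stress and senescence, 0 had a peak in either list. They include NAC032 and NAC102 of the ATAF group, NAC092 (ORE1) and NAC029 (NAP). Among 10 other membrane-held or ER-linked NAC genes, such as NAC062, NAC103 and NAC078, a close relative of NAC053, NAC089 alone had one. None of the 6 other VND genes of vessel formation had a peak. NAC076, the VND gene given a peak, was itself picked with earlier results known, so this count does not single it out.

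None of the listed genes reported to act below or above the NAC factors had a peak. Of 16 genes described as their targets, 0 had a peak in either list (upper Wilson limit 19.4%). They include ERD1, NCED3 of abscisic acid synthesis, GLK1 of chloroplast development, ACO5 of ethylene synthesis, and NYE1 and PAO of chlorophyll breakdown. Of 6 genes for regulators that act on them, MYC2, ABF2, ABF3, ABF4, ABI5 and EIN3, 0 had a peak (upper limit 39.0%). At a background of 2.27% in the tunicamycin list, lists this short would hold few peaks or none, so these counts do not set them apart from other genes.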

How the data were processed

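The build TAIR10 and the tools Bowtie 1.1.2 and MACS2 2.1.2, with cutadapt 1.8.1, SAMtools 1.8 and FastQC 0.11.5, are listed in the submitters' processing notes. How each was run, the peak threshold, whether replicates were pooled and how input was used were not given in the sources used here. Per the file headers, the score that the authors deposited for each peak is a signal value, and it came with its position, width, class and gene. A score orders peaks within a list only.

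A peak counted as shared if it overlapped one of the other treatment's list by 1 bp or more. Gaps are the bases between 2 peaks. Names, gene kinds and neighbours came from the RefSeq table of TAIR10.1, whose coordinates were not set against peaks; all 9 genes and all 59 genes on the hand-written lists matched. The NAC family is the 100 protein-coding genes whose symbol or synonyms name a NAC number or a NAC domain containing protein. WRKY and numbered MYB genes are protein-coding genes with a symbol or synonym made of WRKY or MYB and a number alone. The genes and lists were chosen with earlier results of these data known, and the WRKY and MYB counts were added after the peaks were examined. The genes named were, by rule, the 9, NAC genes with a peak, listed genes and neighbours; genes of the nearest peaks were named after their values were seen. Motif searches and protein comparisons had been planned and were not run, since no sequence was used here. No test was made. Overlap and neighbour counting was tested on simulated data. Tables were handled with pandas 2.3.3 and numpy 2.4.6 in Python 3.11.15, intervals came from SciPy 1.17.1 and plots from matplotlib 3.10.9.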

Additional observations from a re-analysis of the deposited data

How the results depend on the processing

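Of 23 counts recomputed under alternatives, 15 stayed within 1.5 times the reported count and 8 moved. With the strongest 50% of each list, fewer peaks enter by construction: stress NAC genes with a peak came to 2 in the tunicamycin list (ATAF1 and NAC056), 0 in the DMSO list and 2 in the specific list, and NAC family genes to 3, 0 and 3. The number of stress NAC peaks that overlapped a DMSO peak then came to 0, because the DMSO peak of NAC056 dropped out. With the full DMSO list kept and the tunicamycin list alone reduced to its strongest 50%, which was added after seeing the data, it was 1, as reported. Counting a peak at a neighbouring protein-coding gene, an alternative chosen after seeing the data, gave 2 stress NAC genes in the DMSO list, since NAC055 then takes the peak of NAC056. The promoter class alone, neighbours of any kind, the stricter overlap rules, the authors' specific list and the hand-written list of 37 NAC genes moved no count beyond 1.5 times. For the promoter class and the hand-written list this was fixed beforehand. Every peak of the stress NAC genes is in that class, and the hand-written list holds every NAC family gene with a peak. Their unchanged counts, which are among the 15, therefore say nothing about how stable the results are. No paired analysis was possible because the lists carry no values per library, and for the same reason no replicate could be left out. The motif alternatives were not run. Depth is unknown, so weak peaks such as those of NAC047 and ATAF2 have no measured precision.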
